A study of Saccharomyces cerevisiae with 12 samples.

Results

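Chromatin of yeast cells carrying an Abf1 variant with a shuffled essential motif (EM shuffle) was compared with that of cells carrying no Abf1 in the nucleus, along 6002 nuclear protein-coding genes of the R64 annotation, from 1000 bp before to 1000 bp after the start codon. The comparison used 8 of the 12 libraries: 2 biological replicates of each construct, each sampled after 3 h and 4 h of methylation, with the calls of both times summed. The remaining 4 libraries, from cells with wild-type Abf1 on the plasmid (WT Abf1), are given as a reference level. The measurement was occupancy by DNA methylation (ODM-seq), in which the methyltransferase M.SssI marks CpG dinucleotides that no nucleosome or other protein covers, and Nanopore sequencing reads the marks. Occupancy is 100 minus the percentage of methylated calls, so that high methylation is open DNA.

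All cells were labelled as strain BY4741, genotype ABF1-aa-V5 clone A9, in which the chromosomal ABF1 is fused to an anchor-away tag. They were grown without leucine to keep the pRS315 plasmid, treated with 8 µg/mL rapamycin for 75 min so that the tagged Abf1 left the nucleus, and crosslinked with formaldehyde. The no Abf1 cells held the empty plasmid. The EM shuffle plasmid, per the study, encoded an Abf1 whose first disordered region was removed and whose essential motif in the second was scrambled, a construct that did not sustain growth as the only Abf1. The replicates were independent transformant clones of 1 parent clone.

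Abf1 is a general regulatory factor, an abundant DNA-binding protein that organizes chromatin at the promoters of many housekeeping genes. Such factors keep a nucleosome-free region open upstream of the gene and act as a barrier from which nucleosomes are phased. The first nucleosome of the gene, called +1, borders this region and covers or lies close to the transcription start. Further nucleosomes follow it at even spacing, and in a composite profile they appear as an array of peaks that flattens downstream.

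Coverage went against the label of the EM shuffle libraries, which are therefore called the libraries labelled EM shuffle. Relative to its neighbourhood on the chromosome, coverage of ABF1 was 1.85 ± 0.02 (SD, n = 2) in WT Abf1, which carries a plasmid copy beside the chromosomal copy, but 0.990 ± 0.015 in the libraries labelled EM shuffle and 0.916 ± 0.070 in no Abf1. LEU2, the marker of pRS315, was at 0.180 ± 0.089 in the libraries labelled EM shuffle against 1.02 ± 0.18 in no Abf1 and 0.632 ± 0.039 in WT Abf1. MET17, a gene that BY4741 lacks, was covered at 0.973 ± 0.066, 0.935 ± 0.090 and 1.05 ± 0.09 in the libraries labelled EM shuffle, no Abf1 and WT Abf1, which goes against the strain label in all 3. URA3, which BY4741 also lacks, was at 0 in all 3 and did not go against the label. HIS3, another marker of that strain, was at 0.536 ± 0.012, 0.571 ± 0.029 and 0.470 ± 0.040 in the same order. Coverage of chromosome XI in the libraries labelled EM shuffle was 1.154 times the nuclear median in replicate 1 and 2.03 times in replicate 2 after 3 h, and close to these values after 4 h. ABF1 lies on this chromosome. Its coverage relative to its neighbourhood therefore does not show its coverage against the nuclear median, which would be raised with the chromosome. The constructs were also processed in different labelled batches, so batch and construct cannot be told apart. Median coverage per CpG site was 32 to 94 calls in the 8 libraries. Intervals from such calls alone would cover counting error only, and none are given here. The SE of log2 odds, a measure defined below, is scaled by a dispersion between replicates.

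The scale of the values matters here. Methylation averaged over the genome was 24.8% and 24.3% in replicates 1 and 2 of the libraries labelled EM shuffle, and 28.9% and 29.9% in no Abf1. The authors divided each methylation value by a factor, the genome average of the construct over that of WT Abf1, which was 0.871 for the libraries labelled EM shuffle and 1.04 for no Abf1. Values divided by this factor are called corrected, and the same values without it uncorrected. A directional statement below that rests on the factor is marked as such. Differences in single windows are log2 odds of methylation, labelled EM shuffle minus no Abf1, after an offset of -0.36 log2 odds for the same difference in genome average.

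In the composite over all genes, the nucleosome-free trough of the libraries labelled EM shuffle was deeper than that of no Abf1, and the peaks over the gene body were of similar height. The trough lay 136 bp upstream of the start codon in every replicate. Corrected occupancy at its floor was 36.4% and 36.2% in the libraries labelled EM shuffle, 43.5% and 42.9% in no Abf1, and 40.5% and 42.2% in WT Abf1. The 2 replicates labelled EM shuffle were thus the lowest of the 6. From this floor to the first peak the profile climbed by 42.0 and 42.7 percentage points in the libraries labelled EM shuffle and by 34.3 and 33.9 in no Abf1, a difference in trough depth of 8.26 ± 0.56 (p = 0.33 in a two-sided exact permutation test, which cannot give less with 2 against 2 replicates). Without the factor the depths were 36.6 and 37.2 against 35.8 and 35.4, a difference of 1.34 ± 0.51, and the floor itself changed order, with 44.5 ± 0.1% in the libraries labelled EM shuffle and 40.7 ± 0.4% in no Abf1.

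**Figure D1:**
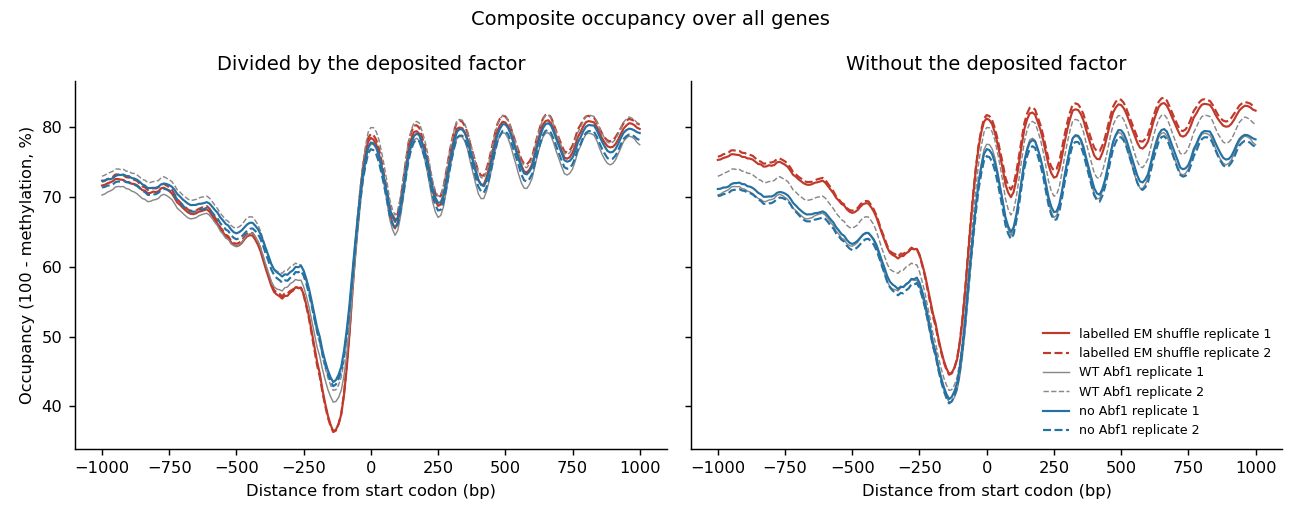
Composite occupancy (100 minus percent methylation, y axis) against distance from the start codon in bp (x axis) over all 6002 genes, 1 line a replicate, corrected by the deposited factor on the left and uncorrected on the right. On the left the trough at -136 bp reaches about 36.3% in the libraries labelled EM shuffle and 43.2% in no Abf1; on the right the order at the floor is the opposite.

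The ratio of promoter to gene body methylation does not depend on the factor, which cancels within a library. Over all genes it was 2.31 ± 0.07 in the libraries labelled EM shuffle, 2.01 ± 0.04 in no Abf1 and 2.10 ± 0.11 in WT Abf1 (SD, n = 2). The replicates of the compared constructs did not overlap, with a difference of 0.30 ± 0.08. The corrected mean methylation of promoters, from 250 to 51 bp upstream, was 53.0 ± 0.1% against 48.5 ± 0.5%, and that of gene bodies, from 150 to 1000 bp downstream, 23.0 ± 0.6% against 24.1 ± 0.7%. Uncorrected, promoters had 46.2 ± 0.1% against 50.5 ± 0.5% and bodies 20.0 ± 0.6% against 25.2 ± 0.7%, so without the factor both were less methylated in the libraries labelled EM shuffle.

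Phasing over all genes differed little. The first peak of the array lay at 0 bp in both replicates labelled EM shuffle and at 3 bp in both of no Abf1, and the second at 168 and 172 bp. Spacing from the first to the fifth peak averaged 164.5 and 164.2 bp against 163.5 bp in both replicates of no Abf1. These shifts of a few bp did not hold under other widths of smoothing, where the difference of the first peak became 0. The mean drop from a peak to the next trough over the first 4 peaks, the array amplitude, was 9.87 and 9.45 percentage points in the libraries labelled EM shuffle and 9.26 and 9.35 in no Abf1. That small excess of 0.36 ± 0.31 turned into a deficit of 1.29 ± 0.27 without the factor, with 8.42 against 9.70.

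Genes were then separated by a match to the Abf1 consensus, a bipartite motif of 13 bases with a fixed spacer, whose centre lay 50 to 500 bp upstream of the start codon and outside coding sequence. Of the 6002 genes, 1007 (16.8%) had such a match. A match is a description of sequence and need not be bound.

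The array downstream of these 1007 genes was stronger in the libraries labelled EM shuffle than in no Abf1, on either scale. Its amplitude was 12.5 and 12.4 percentage points in the replicates labelled EM shuffle, 8.71 and 8.89 in no Abf1, and 12.8 and 11.96 in WT Abf1. With the factor, the replicates labelled EM shuffle fell within the range of WT Abf1, and those of no Abf1 lay below both. Without it, at 10.88 and 10.82, they lay below WT Abf1 but still above no Abf1. The difference was 3.65 ± 0.13, and 1.67 ± 0.14 without the factor, where the values were 10.9 ± 0.04 against 9.18 ± 0.13. Every one of the first 4 peaks took part. The drop after the first peak was 16.5 ± 0.3 against 10.8 ± 0.2 points, after the second 13.4 ± 0.1 against 9.71 ± 0.12, after the third 11.3 ± 0.1 against 8.32 ± 0.22, and after the fourth 8.69 ± 0.14 against 6.43 ± 0.08.

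The height of the first peak rose in the same way, from 77.4 ± 0.5% in no Abf1 to 81.5 ± 0.6% in the libraries labelled EM shuffle. Its position did not, at 5 bp upstream of the start codon in all 4 replicates, while the trough floor lay at 133 bp upstream in the libraries labelled EM shuffle and at 140 bp in no Abf1. The trough depth of these genes was 41.6 and 43.5 points against 30.7 and 30.5, a difference of 11.9 ± 1.3 that shrank to 5.12 ± 1.17 without the factor.

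The 4995 genes without a match showed a deeper corrected trough too, but no stronger array. Their depth was 42.3 and 42.8 points in the libraries labelled EM shuffle against 35.5 and 35.0 in no Abf1, a difference of 7.33 ± 0.45 that was 0.34 ± 0.43 without the factor, where replicates overlapped. Their array amplitude was 9.67 and 9.13 against 9.79 and 9.83 points, lower by 0.41 ± 0.38, and lower by 2.04 ± 0.33 without the factor. Peak spacing was 162.8 bp in both constructs.

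Taking the genes without a match as the reference inside each replicate removed most of the dependence on scale. The amplitude of genes with a match exceeded that of genes without by 2.81 and 3.29 points in the replicates labelled EM shuffle and by 2.58 and 2.27 in WT Abf1, whereas in no Abf1 it fell short by 1.08 and 0.94. The constructs compared differed by 4.06 ± 0.35 on this measure, and by 3.71 ± 0.31 uncorrected. For trough depth, genes with a match differed from genes without by -0.78 and 0.65 points in the replicates labelled EM shuffle and by -4.80 and -4.48 in no Abf1. Both measures thus separated the constructs in the same direction on either scale, each at the smallest p that the exact permutation test allows (0.33).

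**Figure D2:**
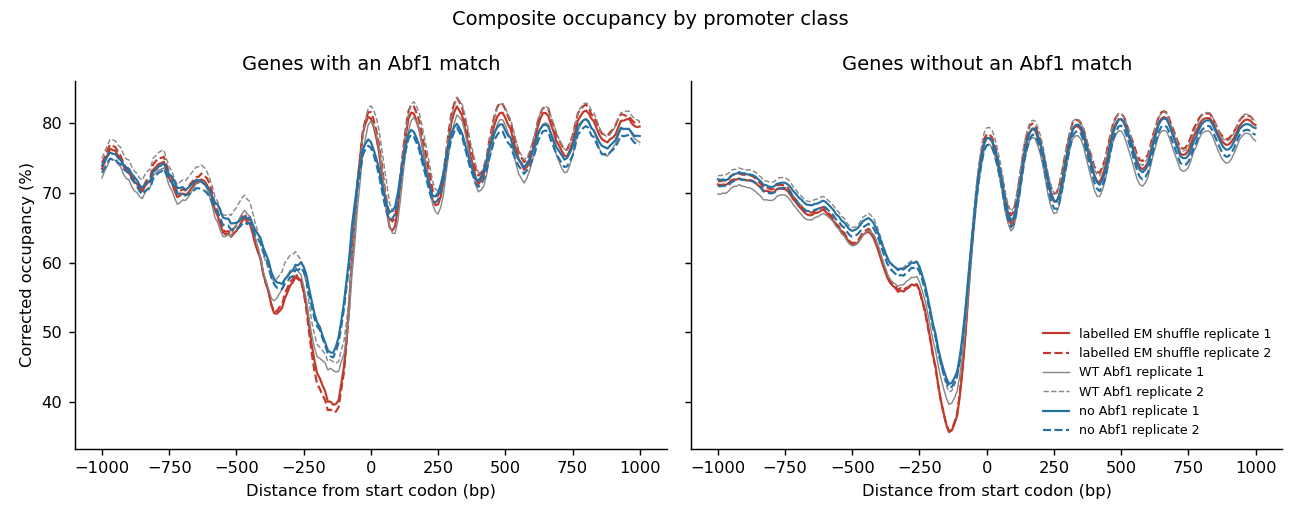
Corrected occupancy (%) against distance from the start codon (bp) for the 1007 genes with an Abf1 consensus match (left) and the 4995 genes without (right), 1 line a replicate. On the left the downstream peaks and troughs of no Abf1 are flatter (amplitude 8.80 points) than those of WT Abf1 (12.37) and the libraries labelled EM shuffle (12.45); on the right the amplitudes lie at 9.40 points in the libraries labelled EM shuffle, 9.81 in no Abf1 and 9.94 in WT Abf1.

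The contrast was larger in the genes whose match lay nearest to the start codon than in those whose match lay farthest from it. For the 276 genes with a match 50 to 150 bp upstream, array amplitude was 27.0 and 27.6 points in the libraries labelled EM shuffle, 17.8 and 18.4 in no Abf1 and 27.7 and 26.1 in WT Abf1. The trough of these genes reached 32.7% and 30.5% occupancy in the libraries labelled EM shuffle and 46.0% and 45.3% in no Abf1, and its floor lay 92 and 87 bp upstream in the former and 130 and 115 bp in the latter. The direction held without the factor (amplitude 23.8 ± 0.4 against 18.9 ± 0.4, trough 40.4 ± 1.4% against 43.3 ± 0.5%). In the 397 genes with a match at 150 to 250 bp, amplitude was 13.3 ± 0.1 against 9.80 ± 0.10, and 11.6 ± 0.1 against 10.2 ± 0.1 without the factor. The first peak of both constructs there was set at 119 bp, near the end of the range searched, and that of WT Abf1 at -18 bp, so that WT Abf1 cannot be set beside them. Their amplitudes may also begin at another peak than in the other distance classes, and were not ranked with those. The 334 genes with a match at 250 to 500 bp had amplitudes of 7.25 ± 0.07 and 6.38 ± 0.40, an order that changed to 6.32 ± 0.06 and 6.66 ± 0.41 without the factor.

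Around the matches themselves, the DNA beside the match was more open in the libraries labelled EM shuffle. Over 810 matches with CpG sites 10 to 75 bp from their centre, occupancy of these flanks was 34.5% and 32.4% in the replicates labelled EM shuffle, 49.6% and 48.9% in no Abf1 and 36.0% and 38.1% in WT Abf1. Both replicates labelled EM shuffle lay below both of no Abf1 at 715 of the matches (88.3%). Over all 353646 single CpG sites, corrected methylation in both replicates labelled EM shuffle was above both of no Abf1 at 21.6% (lower occupancy) and below both at 27.9%. Single sites are not averages as flanks are. Among flanks of Reb1 motif matches, both replicates labelled EM shuffle lay below both of no Abf1 at 383 of 468 (81.8%), so that this corrected share is not particular to Abf1 matches. Uncorrected, the flanks were still lower, at 42.1 ± 1.3% against 47.1 ± 0.6%, at 422 matches (52.1%), against 23 Reb1 flanks (4.92%).

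The CpG inside the match, which the final ACG of the consensus provides, behaved differently. Its mean occupancy over 829 matches was 53.3% and 52.5% in the libraries labelled EM shuffle, 49.5% and 49.3% in no Abf1, and 61.4% and 61.0% in WT Abf1, so that the replicates labelled EM shuffle lay between the other constructs. Without the factor the libraries labelled EM shuffle were at 58.9 ± 0.5% against 47.2 ± 0.2%. From 90 to 200 bp, where the neighbouring nucleosomes lie, occupancy was 69.3 ± 0.5% against 67.2 ± 0.6%, and 73.2 ± 0.5% against 65.8 ± 0.6% uncorrected.

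Matches of the same 2 motif parts with the spacer changed, which serve as a control of base composition, had flanks of 52.0% and 52.1% in the libraries labelled EM shuffle and 56.5% and 56.2% in no Abf1, over 345 matches, and lay below at 183 of them (53.0%), or 41 uncorrected (11.9%). This difference of -4.28 ± 0.22 points changed to 3.77 ± 0.23 without the factor.

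**Figure D3:**
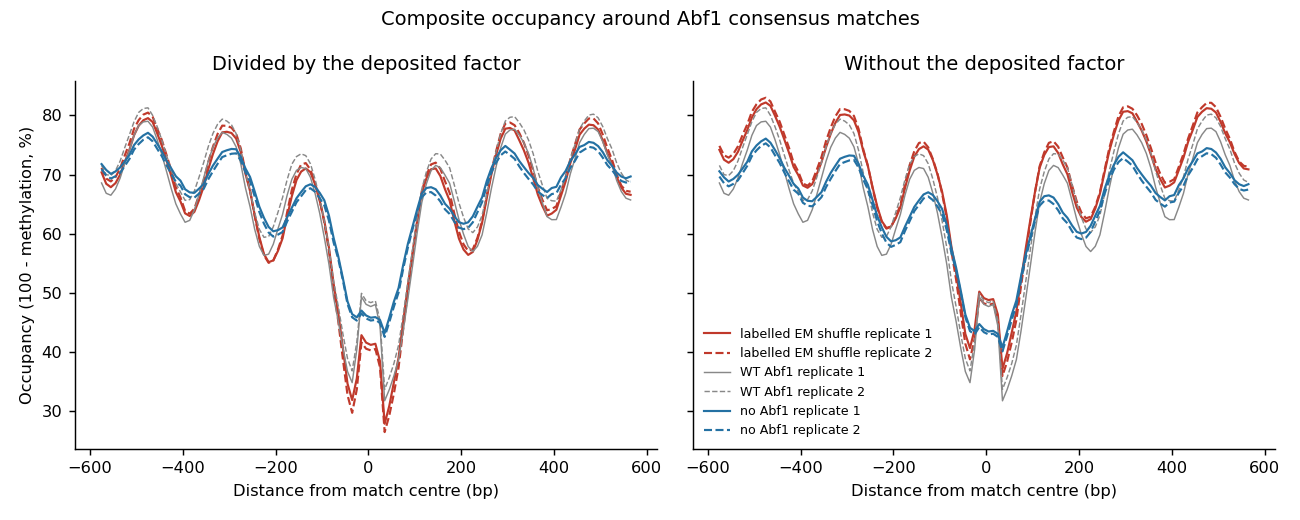
Occupancy (%) against distance from the centre of Abf1 consensus matches (bp), 1 line a replicate, corrected on the left and uncorrected on the right. On both sides the dip next to the match is shallower in no Abf1 (flank occupancy 49.2% corrected, 47.1% uncorrected) than in the libraries labelled EM shuffle (33.5% and 42.1%), which also show larger swings of the outer nucleosomes.

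Genes were next tested individually in 5 windows with a quasi-binomial model of the methylated calls, whose spread is moderated across windows. Of 5845 promoter windows, 655 were called at an adjusted p under 0.05 (11.2%), 467 with higher methylation in the libraries labelled EM shuffle (7.99%) and 188 with lower (3.22%). In the near upstream window, 500 to 250 bp before the start codon, 487 of 5941 were called (8.2%), and in the far upstream window, 1000 to 500 bp before it, 277 of 5994 (4.62%). The start window, from 50 bp before to 150 bp after the start codon and hence over the +1 nucleosome, had 185 calls of 5879 (3.15%), of which 54 were higher (0.919%) and 131 lower (2.23%). The gene body window had 91 of 5811 (1.57%), with 29 higher (0.499%) and 62 lower (1.07%). On chromosome XI the shares were larger, with 53 of 311 promoters called (17.0%), 19 of 314 start windows (6.05%) and 12 of 313 gene bodies (3.83%). The part of its raised coverage in these calls was not tested.

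The direction of these splits depended on the offset. With the median log2 odds of each window type set to 0, promoters had 360 higher and 242 lower, start windows 64 and 88, and gene bodies 38 and 20, so that gene bodies changed from mostly lower to mostly higher. With no offset, 174 promoters were higher and 1883 lower, nearly all calls in the other windows were lower, and promoters had the fewest calls of the 5 windows, where with the offset they had the most. Removing the offset lowers every log2 odds by 0.36, so that falls called with it are bound to stay called and only rises can be lost. Calls in the same direction with and without the offset were 174 higher (2.98%) and 188 lower (3.22%) in promoters, 31 higher (0.527%) and 131 lower (2.23%) in start windows, and 10 higher (0.172%) and 62 lower (1.07%) in gene bodies. Only genes in these sets were named below by size of change. The number of calls also depended on single replicates: promoter calls were 256 without replicate 2 labelled EM shuffle, 406 without its replicate 1 and 408 without no Abf1 replicate 1. Start calls were 67, 109 and 107 under the same omissions and 111 without no Abf1 replicate 2, and gene body calls were 12, 23, 28 and 27 in that order. Near upstream calls were 183 without replicate 2 labelled EM shuffle, and far upstream calls 74, 148, 140 and 162 under the 4 omissions.

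**Figure D4:**
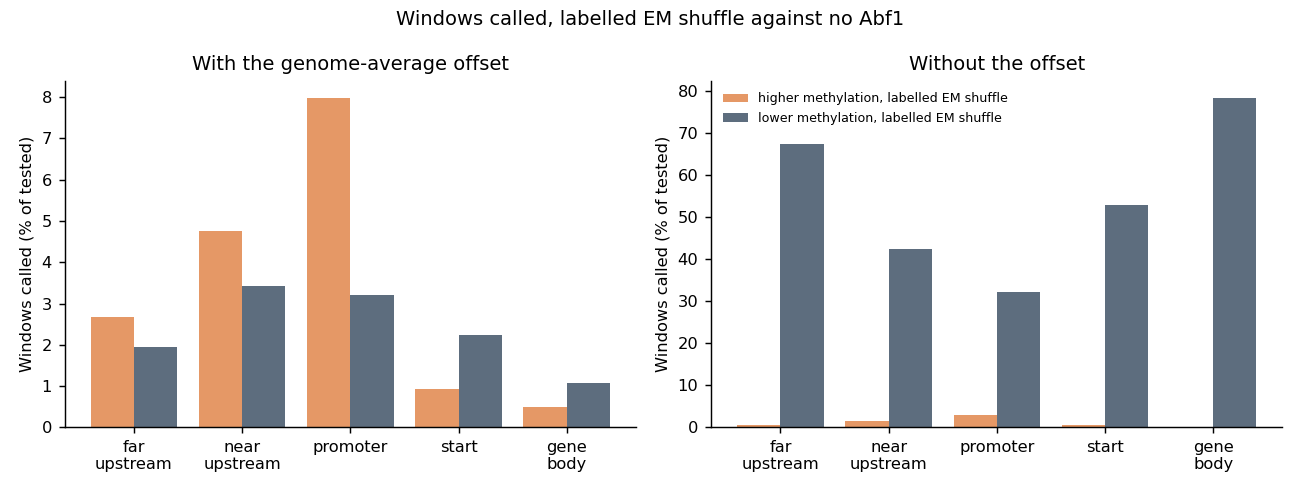
Share of tested windows called (%), by window, with higher (orange) or lower (dark grey) methylation in the libraries labelled EM shuffle, with the genome-average offset on the left and without it on the right (y axes differ). With the offset, promoters have the most calls (7.99% higher and 3.22% lower) and gene bodies the fewest (0.499% and 1.07%); without it most calls are lower in every window.

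Among promoters with an Abf1 match, 279 were called higher and 66 lower (34.5% of those tested), against 188 and 122 of the 4846 without a match (6.40%). Their median difference was 0.18 log2 odds, where that of all promoters was 0.06. These counts and medians rest on the offset: 128 of the 279 and all 66 were called in the same direction without it, the latter by construction, and the medians were then -0.18 and -0.29. Among promoters with a match at 50 to 150 bp, 132 of 275 were called (48.0%), at 150 to 250 bp 162 of 397 (40.8%), and at 250 to 500 bp 51 of 327 (15.6%), with medians of 0.32, 0.26 and 0.03 log2 odds, or -0.04, -0.09 and -0.32 without the offset. Promoters with a spacer-changed match and no Abf1 match had 13 higher and 13 lower of 313. Start windows of genes with a match had 20 higher and 67 lower of 988 (8.81%), and gene bodies 4 higher and 36 lower of 987 (4.05%).

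The promoters with the largest rises belonged to genes of unrelated functions, and 7 of the 8 named had an Abf1 match. At SEC16, which organizes the sites where COPII vesicles leave the endoplasmic reticulum, corrected promoter methylation was 38.5% and 51.4% in the libraries labelled EM shuffle, 11.0% and 8.56% in no Abf1 and 47.8% and 49.3% in WT Abf1. SEM1, a small subunit of the proteasome lid, had 47.5% and 51.8% against 12% and 11.97%, with 47.7% and 40.3% in WT Abf1. In both promoters no Abf1 was nearly closed and the libraries labelled EM shuffle were in or near the range of WT Abf1. The differences were 2.83 ± 0.24 log2 odds (SE, adjusted p = 1.63e-08, quasi-binomial model with limma) for SEC16 and 2.79 ± 0.20 (8.59e-10) for SEM1.

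The next in size were IOC4, POL31, MES1, STF1, IPP1 and CHO1, at 1.80, 1.77, 1.75, 1.74, 1.71 and 1.69 log2 odds, in each of which the replicates did not overlap. Over all tested promoters, single libraries of the compared constructs did not overlap at 37.7% after correction. IOC4, a subunit of the remodeller Isw1b, had 57.9% and 66.6% in the libraries labelled EM shuffle against 31.1% and 27.3%, and was the only one of the 8 with no match. MES1, the methionyl-tRNA synthetase, had 70.4% and 76.6% against 36.8% and 39.9% over 12 CpG sites. IPP1, the inorganic pyrophosphatase, had 58.0% and 64.2% against 28.2% and 30.6%. For CHO1, the phosphatidylserine synthase, the values were 64.3% and 67.2% against 33.8% and 32.4%. POL31, a subunit of DNA polymerase delta, and STF1, a regulator of the mitochondrial ATP synthase, reached 57.2% and 58.2%, and 48.3% and 52.6%, from at most 27.8% and 22.0% in no Abf1. Uncorrected values keep the order at all 8 promoters, which were named only if also called without the offset.

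The matches in these promoters are shown, apart from those of IPP1, which lie 180 and 217 bp upstream. Occupancy of the CpG in the first of these was 60.8% and 79.8% in the libraries labelled EM shuffle against 63.3% and 62.7% in no Abf1. In the second it was 39.4% and 36.4% against 83.3% and 77.35%. Capitals mark the 13 bases of the match, on the strand that reads as the consensus, in the R64 (sacCer3) assembly.
SEC16: aagtgatgATCACTTATAACGttgtgtta
SEM1: attatattATCATTATTTACGaaactagt
POL31: agatttatATCATGTTATACGattaatca
MES1: ttctcaatATCACGAGGCACGaatgattt
STF1: tgataatgATCACTATATACGtcaaatga
CHO1: tggtcaaaATCACTTTGAACGttcacacg

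The SEM1 match (chromosome IV, 1201990 to 1202002, plus strand) lies 132 bp upstream of its start codon, in the intergenic promoter. Its own CpG was covered in every construct, at 95.1% and 94.1% occupancy in the libraries labelled EM shuffle, 94.4% and 92.8% in no Abf1 and 90.0% and 94.7% in WT Abf1. The flanks 10 to 75 bp away were at 39.4% and 35.7% in the libraries labelled EM shuffle against 86.2% and 86.6% in no Abf1, so that the difference lay beside the match and not in it. At POL31 (chromosome X, 449073 to 449085, plus strand, 123 bp upstream) flanks were 29.4% and 28.6% against 71.0% and 73.3%. The STF1 match (chromosome IV, 228984 to 228996, plus strand, 181 bp upstream) had flanks of 43.7% and 37.5% against 80.7% and 80.1%.

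The matches of MES1, CHO1 and SEC16 lie on the minus strand. At MES1 (chromosome VII, 1022031 to 1022043, 184 bp upstream) flank occupancy was 25.0% and 15.5% against 60.3% and 57.5%, and at CHO1 (chromosome V, 208665 to 208677, 197 bp upstream) 27.0% and 26.8% against 68.1% and 68.3%. The core CpG of CHO1 was lower in the libraries labelled EM shuffle (59.8% and 50.98%) than in WT Abf1 (74.7% and 74.9%) and near no Abf1 (60.7% and 65.4%). SEC16 differs from the others in that its match (chromosome XVI, 386777 to 386789) lies 284 bp upstream, outside the promoter window, and its core CpG was open in the libraries labelled EM shuffle, at 12.3% and 15.5% occupancy against 33.0% and 34.9%. These core and flank values are descriptions of promoters already chosen by their windows.

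**Figure D5:**
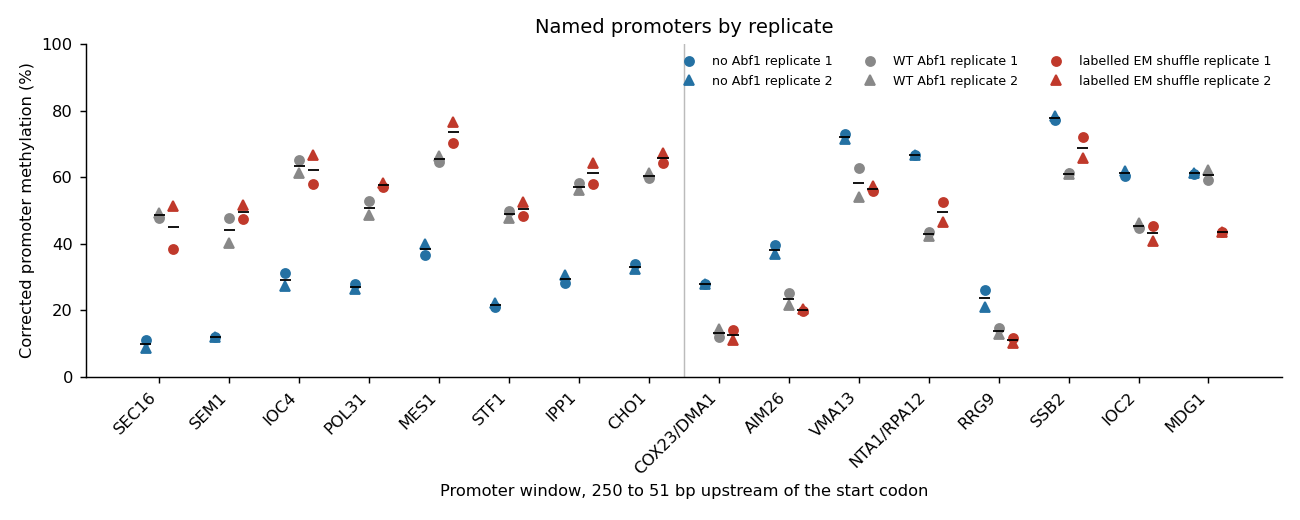
Corrected promoter methylation (%, y axis) of the named promoters, with a point for each replicate and a bar at the mean of a construct; the 8 largest rises are left of the line and the 8 largest falls right of it. Replicates labelled EM shuffle and no Abf1 do not overlap in any of them, and WT Abf1 lies closer to the libraries labelled EM shuffle in all but MDG1. The promoters were picked by size of difference. Over all 5845 tested promoters, even single libraries of the compared constructs did not overlap at 37.7%.

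Among the falls, 6 genes in 5 promoters had an Abf1 match. At IOC2, another subunit of Isw1b, corrected promoter methylation was 45.3% and 40.95% in the libraries labelled EM shuffle, 60.4% and 61.8% in no Abf1 and 44.6% and 46.2% in WT Abf1, a difference of -1.17 ± 0.13 log2 odds (adjusted p = 9.98e-07, quasi-binomial model with limma). The window shared by NTA1, the amidase of N-terminal asparagine and glutamine, and RPA12, a subunit of RNA polymerase I, had 52.4% and 46.5% against 66.6% and 66.6% (-1.23 ± 0.17). That shared by COX23, a factor for cytochrome oxidase assembly, and DMA1, a ubiquitin ligase, had 14.1% and 11.2% against 28.0% and 27.8% (-1.32 ± 0.21). RRG9, needed to retain the mitochondrial genome, had 11.8% and 10.3% against 26.2% and 21.1%. In all of these the mean of WT Abf1 was nearer to that of the libraries labelled EM shuffle than to that of no Abf1.

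SSB2, a ribosome-bound Hsp70, had 72.0% and 65.7% in the libraries labelled EM shuffle against 77.3% and 78.5% in no Abf1, with single aliquots overlapping after correction, and a difference of -1.18 ± 0.15. AIM26, on chromosome XI, had 19.8% and 20.4% against 39.6% and 36.8%, and VMA13, a subunit of the vacuolar ATPase, 55.7% and 57.4% against 72.8% and 71.4%, both without a match. MDG1, a plasma membrane protein of pheromone signalling, also without a match, had 43.6% and 43.6% against 60.9% and 61.3%. There WT Abf1, at 59.2% and 62.3%, resembled no Abf1. The falls at NTA1 and RPA12, SSB2 and MDG1 were called in the window of 250 to 51 bp but not in one of 200 to 1 bp.

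The matches of the falling promoters are printed for comparison with those of the rising ones, with capitals as before.
IOC2: agaattatGTCACTTTTGACGctctcgca
IOC2: ttaccgctATCACCGCACACGgaatgcga
NTA1: aattatatATCGTTACGAACGaaagatga
RRG9: gctttatgATCATTTTAGACGactgtggg
SSB2: taattcgtATCATTCGAAACGgaaaaaga
DMA1: gagagaatATCACTGTTTACGgcccacaa

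In these promoters the CpG of the match was itself less methylated in the libraries labelled EM shuffle than in no Abf1. IOC2 has a match on each strand of chromosome XII, at 332252 to 332264 and 332276 to 332288, 143 and 167 bp upstream. Core occupancy was 53.7% and 56.0% against 33.7% and 34.6% at the first, and 68.3% and 83.0% against 34.7% and 36.7% at the second. At SSB2 (chromosome XIV, 251833 to 251845, 220 bp upstream) it was 46.5% and 61.5% against 20.7% and 15.3%. The match between NTA1 and RPA12 (chromosome X, 555057 to 555069) had 56.8% and 60.5% against 33.7% and 34.5%.

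RRG9 (chromosome XIV, 247276 to 247288, 178 bp upstream) had core values of 84.0% and 77.0% against 63.2% and 62.3%, and DMA1 (chromosome VIII, 341625 to 341637, 272 bp upstream) 76.8% and 69.0% against 58.8% and 62.2%. In each of these 6 matches the replicates labelled EM shuffle lay above both of no Abf1. Among the printed matches of rising promoters this held, on the corrected scale, at POL31 alone, with 86.1% and 79.9% against 75.5% and 75.3%, and uncorrected at SEM1 too. Over all 829 matches it held at 390 (47.0%), and uncorrected at 551 (66.5%). Except at DMA1 and SEC16, the CpG of the match lies inside the promoter window by which the gene was chosen. Its direction is thus partly built in, and these values are descriptions.

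In start windows, over the +1 nucleosome, all of the 5 largest falls were in genes with an Abf1 match. MRP20, a protein of the large mitochondrial ribosomal subunit, had 8.03% and 5.22% methylation in the libraries labelled EM shuffle, 27.4% and 30.8% in no Abf1 and 7.98% and 11.2% in WT Abf1, a difference of -2.35 ± 0.24 log2 odds (adjusted p = 8.20e-09, quasi-binomial model with limma). VPS24, an ESCRT-III subunit on chromosome XI, had 6.34% and 4.07% against 21.04% and 18.9%. PHO2, a homeodomain transcription factor, had 7.36% and 5.00% against 19.9% and 15.99%. In these genes the region of the first nucleosome was nearly closed in WT Abf1 and the libraries labelled EM shuffle, and partly open in no Abf1. CET1, the RNA triphosphatase of mRNA capping, had 31.2% and 27.6% against 56.6% and 54.3% (-1.63 ± 0.17), and MRH4, a mitochondrial RNA helicase, 18.7% and 19.4% against 38.8% and 43.3% (-1.55 ± 0.23).

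The largest rises in start windows were those of SEC16, SRP40, PHO92, MRX6 and CHO1. SEC16 had 35.6% and 36.8% against 11.3% and 10.5%, and CHO1 38.0% and 40.1% against 17.5% and 20.8%, so the opening of these promoters extended over the start codon. PHO92, a reader of N6-methyladenosine, had 59.7% and 71.3% against 34.1% and 39.8%. SRP40, a nucleolar protein on chromosome XI, had 22.0% and 42.7% against 11.6% and 11.6%. MRX6 had 17.0% and 28.1% against 11.2% and 9.86%, and its aliquots overlapped.

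Gene bodies held few changes, and some rested on a single replicate. The largest value was that of SRP40, with 34.0% in replicate 1 and 64.5% in replicate 2 of the libraries labelled EM shuffle, against 15.9% and 17.7% in no Abf1 and 22.5% and 16.9% in WT Abf1. Its 2.36 ± 0.09 log2 odds were called with the spread shared across windows, but not with the spread of this window kept where it was larger. Coverage of its chromosome XI also differed between these replicates, as given above, and the part of that in the result was not tested. AHT1 behaved alike in the other direction, with 60.7% and 33.3% against 62.8% and 62.4%, so that replicate 1 lay near the level of no Abf1 with the factor, and at 52.86% against 65.53% and 65.06% without it.

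The other named rises in gene bodies were of genes without a match. PUT4, the proline permease, had 57.3% and 61.7% against 40.8% and 40.8% over 74 CpG sites (0.92 ± 0.07 log2 odds, adjusted p = 1.78e-34, quasi-binomial model with limma), with 56.7% and 51.8% in WT Abf1. That p and SE rest on the dispersion pooled over gene bodies and not on the spread of PUT4 itself. BSC4 had 55.4% and 61.0% against 35.6% and 35.9%, CUE4 53.5% and 55.0% against 35.3% and 35.8%, and RTS2 36.1% and 35.2% against 26.9% and 25.0%. Replicates did not overlap in these genes, although single aliquots of CUE4 and RTS2 did without the factor. With the factor, single aliquots did not overlap at 13.5% of all tested gene bodies.

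Of the falls in gene bodies, IPP1 had 20.3% and 14.0% against 29.8% and 31.9%, and CYC3, the cytochrome c haem lyase, 32.6% and 25.2% against 42.0% and 44.7%. WT Abf1 stood with no Abf1 at CYC3 (39.0% and 41.3%) and with the libraries labelled EM shuffle at IPP1 (21.9% and 17.0%). RNA14, of the cleavage and polyadenylation machinery, had 15.0% and 14.4% against 24.8% and 23.6%, and COY1, a Golgi membrane protein on chromosome XI, 22.1% and 18.5% against 30.2% and 30.8%.

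Several genes changed in more than 1 window, often in opposite directions upstream and downstream of the start codon. IOC4 rose in its promoter and fell over its start, from 41.9% and 44.7% in no Abf1 to 23.6% and 26.6% (-1.20 ± 0.16 log2 odds), and in its body, from 35.0% and 35.1% to 29.1% and 25.2%. RSC4, a bromodomain subunit of the remodeller RSC on chromosome XI, likewise rose in its promoter (55.6% and 64.4% against 37.6% and 41.7%) and fell over its start (30.01% and 29.3% against 38.0% and 36.8%) and body (16.2% and 15.6% against 21.7% and 22.9%). IPP1 and RSC1 rose in the promoter and fell in the body.

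Over the 467 promoters called higher, 43 of 458 start windows tested were called lower (9.39%), where 2.23% of all were, and 23 of 453 gene bodies (5.08%), where 1.08% of the bodies of all tested promoters were. Of those start windows 25 were called higher (5.46%), where 0.942% of all were, so that calls in both directions stood above their background. Since windows of a gene share its libraries, these counts are descriptions.

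The level of WT Abf1 was nearer to the libraries labelled EM shuffle than to no Abf1 in 324 of the 467 promoters called higher (69.4%) and in 131 of the 188 called lower (69.7%), against 38.6% of all tested promoters. With an Abf1 match the shares were 236 of 279 (84.6%) and 60 of 66 (90.9%). Uncorrected, WT Abf1 was nearer to the libraries labelled EM shuffle in 83.9% of the promoters called higher and 60.6% of those called lower, against 38.8% of all.

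Promoters that were open in WT Abf1 differed most in percentage points after correction, and the direction of that difference rested on the factor. In the quintile with the highest methylation in WT Abf1, means were 82.3% and 83.0% in the libraries labelled EM shuffle and 72.3% and 72.7% in no Abf1, and in the lowest quintile 24.0% and 23.3% against 24.4% and 25.3%. Uncorrected, the highest quintile had 71.7% and 72.3% against 75.5% and 75.8%. On the log2 odds scale the medians were close, from -0.04 in the lowest quintile to 0.10 in the fourth, and from -0.40 to -0.26 in these without the offset. Calls in the lowest quintile were mostly lower, with 65 lower and 17 higher of 1169, whereas in the other 4 the higher calls were more frequent, with 140 higher and 33 lower in the middle quintile. The highest quintile had 63 higher and 14 lower. Its share of promoters called, 6.59%, was the smallest, against 14.8% in the middle quintile.

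The lists of gene groups were counted against the same background of 11.2% of promoters called. Rises rest in part on the offset, and those also called without it were 5 of 9 for the proteasome, 7 of 13 for mitochondrial and 3 of 9 for cytosolic ribosomal proteins, 2 of 5 for synthetases, 3 of 8 for remodellers, 2 of 4 for RNA polymerases, 2 of 3 for heat shock, and 1 of 2 each for glycolysis, purine synthesis and zinc. All falls were called either way, which holds by construction because removing the offset lowers every log2 odds. Among proteasome subunits 9 rose and 2 fell of 34, with SCL1, an alpha ring subunit, at 71.3% and 76.1% against 39.2% and 43.6% (1.63 log2 odds), and RPN13 at 0.82, while RPN5 fell by 0.84. In mitochondrial ribosomal proteins 13 rose and 1 fell of 65 tested, with MRP51 at 57.2% and 60.0% against 35.4% and 35.8% (1.21), MRPL36 at 1.02 and MRPL32 at 0.98. Cytosolic ribosomal proteins had 9 rises and 3 falls of 138, near the background, and the paralogues of ribosomal protein L4 went opposite ways, with RPL4B at 0.85 and RPL4A at -0.84.

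Among aminoacyl-tRNA synthetases 5 rose and 1 fell of 22, led by MES1 and then DPS1, for aspartate (0.95). Chromatin remodeller subunits had 8 rises and 1 fall of 39, and RSC1 moved from 23.9% and 28.6% in no Abf1 to 47.4% and 47.5% (1.25), while IOC2 fell. RNA polymerase subunits had 4 rises and 3 falls of 30. RPA135 rose (0.95), and RPA12, RPB8 (-0.99) and RPO26 (-1.07) fell, the last over 2 CpG sites. Every polymerase gene named here had an Abf1 match.

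Heat shock and chaperone genes divided into 3 rises and 3 falls of 25. SSE2 rose (41.1% and 41.5% against 19.9% and 24.6%, 1.26), as did STI1 (0.85), and SSB2 and SSA1 (-0.75) fell. Of 15 glycolytic promoters 2 rose and 1 fell. ENO2, an enolase, had 59.6% and 70.4% against 38.7% and 41.8% (1.27), which was above WT Abf1 (49.5% and 47.6%) as well. GLK1, a glucokinase, fell in its promoter by 0.48, and its body rose by 0.45 with the offset, but at 0.09 was not called without it.

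The smaller lists held few calls. Purine synthesis had 2 rises of 10, with ADE17 at 49.96% and 56.2% against 38.8% and 33.4%, and zinc-responsive genes 2 of 14, with ZRT3, the vacuolar zinc exporter on chromosome XI, at 20.5% and 25.6% against 11.3% and 15.8%. Of 10 histone promoters 3 rose, HHF2 (0.59), HHT1 (0.54) and HHT2 (0.36), none of which was called without the offset, and HHT2 and HHF2 share a divergent promoter. Pheromone response and mating genes had 0 rises and 1 fall of 30, at PRM2 (-0.82).

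Over start windows, where 0.919% of all genes were called higher and 2.23% lower, no member of the 12 lists rose, and the falls were 6 of 65 mitochondrial ribosomal proteins, 3 of 32 RNA polymerase subunits, 3 of 39 remodeller subunits, 2 of 34 proteasome subunits, and 1 each of 137 cytosolic ribosomal proteins, 22 synthetases, 16 glycolytic and 25 heat shock genes. After MRP20, the largest were RET1, a subunit of RNA polymerase III (-1.27), IOC4, and the mitochondrial ribosomal proteins RSM28 (-1.18) and MRPL36 (-1.005). TDH3, which encodes the main glyceraldehyde-3-phosphate dehydrogenase, fell by 0.50 and HSP12 by 0.82. The single calls among cytosolic ribosomal proteins and heat shock genes are near or below that share. In gene bodies, where 1.07% of all were called lower and 0.499% higher, 4 of 41 remodeller subunits fell (IOC4, RSC1, RSC3 and RSC4), as did 2 of 66 mitochondrial ribosomal proteins (MRPS9 and MRP20), 2 of 30 polymerase subunits (RPC40 and RPO31) and 1 of 22 synthetases (KRS1), and GLK1 was the only member of a list called higher.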

How the data were processed

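Genomic DNA methylated by M.SssI was read by Nanopore sequencing in 12 libraries, of which 8 were compared. The authors aligned reads to sacCer3 (R64) with tools that the submitters' processing notes list as minimap2 2.17 and SAMtools 1.9 and 1.15 beside R 4.2.0. The deposited tables give for each CpG site the call count and the methylated fraction. The authors divided the latter by a construct factor, a ratio of genome averages, so that in the libraries labelled EM shuffle it exceeds 1 at some sites and was handled as a deposited score. Methylated calls were recovered as value times factor times call count, rounded, and summed over 3 h and 4 h per replicate.

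Windows were fitted with a quasi-binomial model over the 6 replicates (Python 3.11.15, numpy 2.4.6, pandas 2.3.3, scipy 1.17.1), with dispersions moderated by limma 3.58.1 in R 4.3.3, a logit offset for the construct's genome average, and Benjamini-Hochberg adjustment within a window type. A window was called at an adjusted p under 0.05. The moderation gave far upstream and gene body windows the pooled dispersion and drew the others towards it, so a call may rest on 1 replicate; the dispersion of the window itself where larger was added as an alternative after seeing the data. Composite profiles were means over genes, ended at the stop codon and smoothed over 50 bp, and replicates were compared by a two-sided exact permutation test. The fit was tested on simulated windows. These had a common dispersion within a window type, so the test does not cover windows whose replicates spread more widely.

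Genes named were, among those with a standard symbol called in the same direction with and without the offset, the 8 largest log2 odds in each direction for promoters (at least 4 CpG sites) and the 5 largest for start (at least 4) and body windows (at least 10), and up to 4 called members of each of 12 gene lists per window. Genes that share a promoter window were counted once. The comparison, the rule and the lists were chosen with earlier results of these data known. Alternatives are given under the closing heading. Replicate numbers did not pair the samples.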

Additional observations from a re-analysis of the deposited data

Results flagged for a closer look

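Single libraries stood apart from the other 3 of their construct in a few results, by the gap to the nearest library over the range of the group. Chance flags about 1 in 20 such groups, and 83 groups were tested. The first peak of the composite lay at 0 bp in 1 no Abf1 library and at 3 bp in the others. Among named promoters, corrected methylation was 12.96% in 1 no Abf1 library at SEC16, 52.58% in 1 library labelled EM shuffle at IPP1, 74.82% in 1 no Abf1 library at VMA13, 41.74% in 1 library labelled EM shuffle at NTA1 and RPA12, and 77.19% in 1 at SSB2. The body of CYC3 had 38.91% and the start window of CET1 34.6% in 1 library labelled EM shuffle each, and the start window of SEC16 9.354% in 1 no Abf1 library.

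Some signals outside the comparison differed as well. Methylation of the spike-in plasmid pUC19-ftz was at least 93.39% in the libraries labelled EM shuffle and at most 84.4% in the others. After 4 h, that of the spike-in pFMP233 was 88.55% and 85.38% in replicates 1 and 2 labelled EM shuffle and at most 67.72% in the others. Per the paper this plasmid was added after the 3 h aliquot had been removed. Its calls in 3 h libraries, 7127 and 6691 in those labelled EM shuffle, are thus not a spike-in of these samples. A further plasmid sequence, pGP546, overlapped between constructs, at 58.19% to 62.83% in the libraries labelled EM shuffle. It had 58.17% to 60.28% in no Abf1 and 57% to 61.03% in WT Abf1. Coverage of mitochondrial DNA was at least 55.11 times the nuclear median in the libraries labelled EM shuffle and at most 34.16 times in the others. The part of these values in the results was not tested.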

How the results depend on the processing

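Without the factor or offset, calls were 4074 far upstream, 2612 near upstream, 2057 in promoters, 3137 in start windows and 4565 in gene bodies. Trough depth then differed by 1.34 points (5.12 with and 0.34 without an Abf1 match), array amplitude by -1.29 (1.67 with and -2.04 without a match), promoter occupancy by 4.34 in place of -4.57, and body occupancy by 5.16. An offset per replicate gave 435 far upstream and 468 body calls, and a median of 0 gave 58 in bodies. With 3 h calls only, calls were 124, 197, 280, 59 and 40 in the order of windows above; with 4 h calls only, 290 near upstream, 416 in promoters, 106 in start windows and 31 in bodies. limma on log2 odds gave 300 near upstream. The dispersion of each window where larger, chosen after seeing the data, gave 121 start and 44 body calls. The 4 compared replicates alone gave 263 body calls.

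Amplitude with a match differed by 3.39 at 3 h, 3.91 at 4 h, and 3.90 and 2.84 with smoothing over 30 and 80 bp. Spacing differed by 0.875 bp, by -0.25 and 0 under those widths and by 1.25 from summed calls. The first peak differed by -3 bp, by -1.5 at 4 h, by 0 under both widths and by -4.5 from summed calls.

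Leaving out each replicate in turn gave 74 to 321 far upstream, 183 to 561 near upstream, 256 to 689 promoter, 67 to 230 start and 12 to 263 body calls. Depth ranged from 7.90 to 8.62, from 10.96 to 12.85 with and 7.10 to 7.57 without a match, amplitude from 0.145 to 0.570, from 3.56 to 3.74 and from -0.677 to -0.140, spacing from 0.75 to 1.00, promoter occupancy from -4.90 to -4.24, body occupancy from 0.690 to 1.64 and the promoter to body ratio from 0.253 to 0.348. The first peak stayed at -3.

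Same-numbered replicates did not deviate together (r = 0.0158), and the replicate block gave 651 promoter, 187 start and 49 body calls. Of 750 alternative fits of the named genes, 734 kept their call, 16 lost it and 0 changed direction. These genes were picked as large changes called with and without the offset, so that the counts describe them and not windows at large. Construct and batch cannot be told apart, 2 against 2 replicates cannot reach p = 0.05 in the exact test, and windows hold few CpG sites, as few as 2 in named promoters.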

Other observations

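Reb1 is another general regulatory factor. Genes with a match to its motif TTACCCG on either strand, and no Abf1 match, numbered 522 (8.70% of all). Their promoters had a promoter to gene body methylation ratio of 3.13 in the libraries labelled EM shuffle against 2.62 in no Abf1. Array amplitude was 12.9 ± 0.7 points against 13.7 ± 0.3, and 11.2 against 14.3 without the factor, so that these arrays were not stronger in the libraries labelled EM shuffle on either scale. Of 516 promoters tested, 18 were called higher and 7 lower (4.85%), against 11.2% of all promoters and 6.40% of those with no Abf1 match. Flank occupancy beside Reb1 matches was 19.6 ± 0.3% against 28.6 ± 0.4%, and 29.99 ± 0.25% against 25.5 ± 0.4% without the factor, where the order changed.

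Trough depth was 45.1 against 36.6 points at divergent genes and 39.4 against 31.6 at tandem genes, and array amplitude 11.1 against 10.6 and 8.25 against 8.00. Without the factor the order of the amplitudes changed, to 9.64 against 11.02 at divergent genes and 7.19 against 8.34 at tandem genes, while the depths were 39.3 against 38.1 and 34.3 against 32.9 points.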
